A study of Homo sapiens with 2 samples.

Results

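The HOX genes of the HOXA, HOXB, HOXC and HOXD clusters were described in RNA-seq libraries of HEK293 Flp-In T-Rex cells. The members were all protein-coding genes of GENCODE v44 whose symbol is HOXA, HOXB, HOXC or HOXD followed only by digits. This gave 39 genes with 107 listed transcripts, among 59026 genes of all types and 19885 protein-coding genes in the tables. The 39 genes comprised 11 of the HOXA cluster, 10 of the HOXB cluster and 9 each of the HOXC and HOXD clusters. There was 1 group of 2 libraries, replicate 1 and replicate 2, both from untreated cells with no agent listed, so no condition, time or genotype was compared. HEK293 is an established line derived from human embryonic kidney, and Flp-In T-Rex cells carry an integrated recombination site and a tetracycline repressor. A single derivative of a cell line was sampled, and whether the replicates were separate cultures was not stated. RNA-seq was of total RNA after removal of rRNA, and the tables held 25158962 estimated counts for replicate 1 and 27143860 for replicate 2.

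HOX genes encode transcription factors that bind DNA through a homeodomain and that specify position along the body axis of the embryo. Within a cluster the genes lie in the order of their numbers, with low numbers used towards the head and high numbers towards the tail, and genes with the same number in different clusters are paralogues. The developing kidney and urogenital tract use central and high-numbered HOX genes, among them the paralogues of group 11, which act in the metanephric kidney. PBX, MEIS and PKNOX proteins bind DNA together with HOX proteins, whereas Polycomb and MLL complexes are the known repressors and activators of the clusters.

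The clusters are on 4 chromosomes (GRCh38, GENCODE v44). The HOXA genes span chr7:27092993-27200091 on the minus strand and the HOXB genes span chr17:48528526-48728750 on the minus strand. The HOXC genes span chr12:53938831-54056030 on the plus strand and the HOXD genes span chr2:176092721-176190907 on the plus strand. Levels and normalised counts are used here. A level is the estimated count of each transcript divided by its length, summed over the transcripts of a gene and scaled to 1000000 over the matched transcripts of a library, and levels are used to compare genes unless normalised counts are named. A normalised count is the estimated count divided by the size factor of its library, and it is used to compare the libraries for one gene. Errors are SDs over the 2 libraries (n = 2 throughout), and an order of 2 genes was taken as larger than the spread when it held in each library and the gap between the means was wider than both SDs added. No p-value was computed, since a two-sided sign-flip test on 2 libraries cannot go below 0.5.

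The labelled cell type was checked against marker genes. All 10 genes of a list for HEK293 had at least 3 estimated counts in both libraries and 8 had a level of at least 1, with summed levels of 456.9 and 445.4. The exceptions were PAX2, a transcription factor of the developing kidney, at levels of 0.679 and 0.709, and NEFM, a neurofilament, at 0.234 and 0.327. Among markers of other cells, PTPRC, CD3E, ALB, APOB, DCN, CDH5, MYH7, UMOD and AQP2 were listed at 0 in both libraries. Of the 4 blood genes 1 was detected, HBB, with levels of 20.2 and 20.9, and of the 3 fibroblast genes 1, COL1A1, with levels of 4.21 and 5.50. Of the 2 muscle genes only DES was detected, at levels of 0.350 and 0.149, and of the 2 endothelial, 2 liver and 4 mature kidney tubule genes none was.

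Because paralogues encode similar proteins, the similarity of their RNA was measured before levels were compared. The homeobox, the 180 bases that encode the homeodomain, was found in 39 of 39 genes by translating their GENCODE transcripts. Homeoboxes of paralogues were identical at a median of 81.7% of bases over 42 pairs, against 61.4% over 172 pairs of genes within a cluster. The encoded residues were identical at a median of 93.3% between paralogues and 61.7% within clusters. Homeoboxes of group 9 are shown for HOXB9, HOXC9 and HOXD9, because this group held the highest total and because these members covered a range of levels. They lie in the last exon of each gene, at chr17:48622921-48623100 (minus strand) for HOXB9, chr12:54002465-54002644 (plus strand) for HOXC9 and chr2:176123969-176124148 (plus strand) for HOXD9. Each is written 5′ to 3′, and capitals mark bases that differ from HOXB9.
HOXB9: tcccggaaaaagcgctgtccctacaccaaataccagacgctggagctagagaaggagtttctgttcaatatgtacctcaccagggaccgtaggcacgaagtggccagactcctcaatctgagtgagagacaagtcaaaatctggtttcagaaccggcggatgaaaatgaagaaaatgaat
HOXC9: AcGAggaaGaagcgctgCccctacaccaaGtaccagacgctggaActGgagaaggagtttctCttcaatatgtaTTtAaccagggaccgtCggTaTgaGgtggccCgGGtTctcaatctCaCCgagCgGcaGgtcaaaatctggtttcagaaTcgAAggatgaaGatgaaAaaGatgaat
HOXD9: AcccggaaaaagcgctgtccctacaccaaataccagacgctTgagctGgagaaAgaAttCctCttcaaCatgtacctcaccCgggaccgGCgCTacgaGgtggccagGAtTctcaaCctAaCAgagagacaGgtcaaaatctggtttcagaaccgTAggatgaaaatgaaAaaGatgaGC
The homeobox of HOXC9 differed from that of HOXB9 at 32 bases, which changed 4 residues, and that of HOXD9 differed at 28 bases, which changed 5. The longest run of bases shared with HOXB9 was 20 in HOXC9 and 40 in HOXD9, of 180 bases in each homeobox.

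Over whole transcripts, 20 of the 39 genes shared no word of 50 bases with any other gene, and 19 shared some. Of the 39, 8 shared more than 10% of their words. HOXC5 shared 66.4%, with the overlapping non-member genes ENSG00000273046 and ENSG00000273049. HOXA4 shared 29.4% with ENSG00000273433, and HOXA9 shared 12.8%, mainly with ENSG00000257184, an annotated readthrough gene of HOXA10 and HOXA9. Among members, the sharing above 10% was between genes of a cluster: HOXD11 (19.7%) with its neighbour HOXD10 (16.4%), HOXC4 (16.0%) with HOXC6 (13.4%), and HOXB6 (14.6%), mainly with HOXB3. For these 8 genes the division of reads between genes rests on the estimation, and their values are uncertain to that extent. Words complementary to an antisense gene made up more than 10% of 11 members, most in HOXA7 (61.9%, HOXA-AS3) and HOXD1 (56.4%). Whether counting used strand is not given in the sources used here, so reads of these stretches cannot be assigned to a strand from the tables.

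Transcripts of nearly the whole HOX repertoire were detected. In both libraries 38 of 39 genes had at least 3 estimated counts, whereas 74.7% of all protein-coding genes did. The exception was HOXB1, a gene of the developing hindbrain, which had 1 estimated count in replicate 1 and 0 in replicate 2, at or below the limit that 3 counts set. A level of at least 1 in both libraries was reached by 33 of the 39 genes, beside 60.3% of protein-coding genes. Levels of at least 10 in both libraries were reached by 18 genes, and 4 genes stayed below 1 in both (HOXB1, HOXC12, HOXD1 and HOXD12). The median HOX gene had a level of 7.79, beside 3.91 for all protein-coding genes.

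Together the HOX genes had 24881 (replicate 1) and 31569 (replicate 2) estimated counts. Their summed level was 505.4 and 569.0 per 1000000, a mean of 537 ± 44.9. This sum depended on the denominator: with misc_RNA, ribozyme, snRNA, snoRNA, rRNA and mitochondrial transcripts left out of the library total, it was 1174 ± 145. The 5 highest genes held 40.7% ± 0.283 of the HOX total and the 10 highest held 64.6% ± 1.37. The highest, HOXA9, ranked 1122 among the 19885 protein-coding genes, so no HOX gene was among the most abundant mRNAs of the cells.

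The clusters differed in their totals. The HOXA genes summed to levels of 198.8 and 222.0, or 39.2% ± 0.220 of the HOX total. The HOXB genes followed with 144.0 and 165.7 (28.8% ± 0.445), and the HOXD genes with 97.0 and 105.7 (18.9% ± 0.434). The HOXC genes summed to 65.6 and 75.6 (13.1% ± 0.209). All 6 pairs of clusters differed by more than the spread between the libraries, from 1.36-fold between HOXA and HOXB to 2.98-fold between HOXA and HOXC. The order HOXA, HOXB, HOXD, HOXC was also found without division by length, with 1 length per gene and with protein-coding transcripts only.

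**Figure D1:**
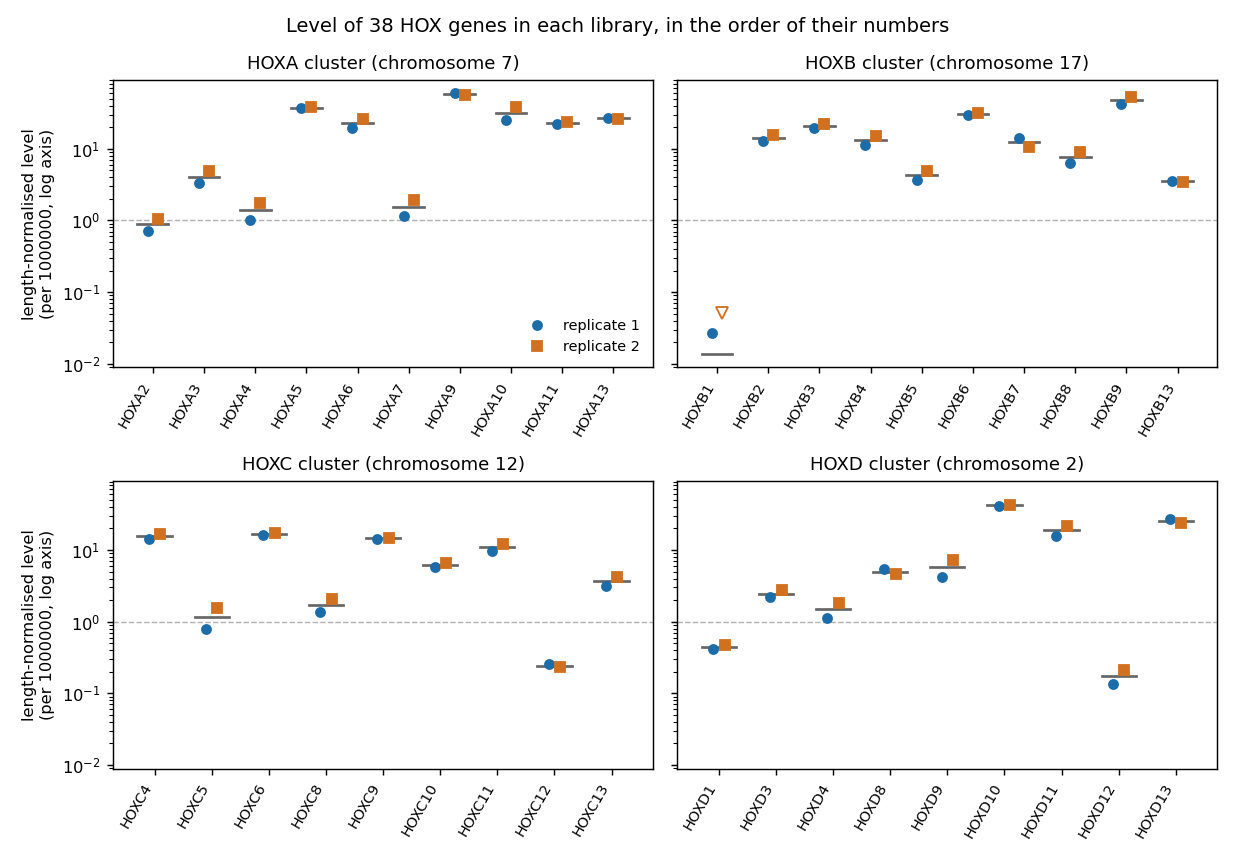
Length-normalised level per 1000000 (log axis) of 38 HOX genes, by cluster and in the order of the gene numbers; circles are replicate 1, squares are replicate 2, short lines are means of the 2 libraries, and the dashed line is a level of 1. The open triangle marks the level that 3 counts would give for HOXB1 in replicate 2, where it was listed at 0. HOXA7, HOXC12 and HOXD12 lie far below the genes on either side of them in both libraries.

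In the HOXA cluster the high-numbered genes carried most of the RNA. HOXA9, a regulator of blood progenitors that is often raised in leukaemia, had levels of 60.5 and 57.2 (mean 58.8 ± 2.30) and was the highest HOX gene. HOXA10, known for its roles in the uterus and in blood formation, had 25.6 and 38.4 (32.0 ± 9.05), the widest spread among the 10 highest genes. HOXA13, a gene of the digits and the genital tract, had 27.1 and 26.1 (26.6 ± 0.659). HOXA11, a gene of the kidney, the forearm and the uterus, had 21.9 and 23.6 (22.8 ± 1.26). HOXA10 and HOXA11 did not differ beyond their spread, while HOXA9 exceeded both. These 4 genes of groups 9 to 13 made up 26.1% ± 0.818 of the whole HOX total.

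The central HOXA genes were uneven. HOXA5, a gene of lung and axial skeleton development, had levels of 36.8 and 38.6 (37.7 ± 1.24), and HOXA6, beside it, had 19.6 and 26.1 (22.8 ± 4.64). HOXA7, between HOXA6 and HOXA9, had 1.16 and 1.91 (1.54 ± 0.531). HOXA6 was 14.9-fold and HOXA9 38.3-fold above HOXA7. HOXA4 had 1.03 and 1.74, so HOXA5 was 27.2-fold above it. Among the low-numbered members, HOXA3, a gene of thymus and neck development, had 3.29 and 4.83. HOXA2, the selector gene of the second pharyngeal arch, had 0.721 and 1.04. HOXA2, HOXA3 and HOXA4 thus had levels below each gene from HOXA9 to HOXA13 in both libraries.

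The HOXB cluster was led by HOXB9, with levels of 42.6 and 53.3 (47.96 ± 7.61), the second highest of all HOX genes. HOXB9 was 6.16-fold above HOXB8, which had 6.41 and 9.16, and 13.7-fold above HOXB13, a gene of the prostate, which had 3.55 and 3.47. HOXB6 had 29.6 and 31.7 (30.6 ± 1.51), above both HOXB5 (3.62 and 4.91) and HOXB7 (14.4 and 10.6). Unlike in the HOXA and HOXD clusters, the low-numbered genes HOXB2 and HOXB3 were also well represented. HOXB3 had 19.8 and 21.8, and HOXB2, a gene of the hindbrain, had 12.8 and 15.7. HOXB3 was at 13.2 ± 2.35 with protein-coding transcripts only and at 11.7 ± 0.986 with 1 length per gene. The central gene HOXB4, known for expanding blood stem cells, had 11.2 and 14.9. HOXB2 and HOXB3 together accounted for nearly all of the 6.53% ± 0.0997 of the HOX total that came from groups 1 to 3 of this cluster, beside 1.24% ± 0.298 for HOXA and 0.541% ± 0.0301 for HOXD. HOXB1, at the low-numbered end, was not detectable at this depth, and 3 counts would have given it levels of 0.0563 and 0.0503.

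The HOXC cluster had no gene above a mean level of 20.8, the level of HOXB3. HOXC6 had 16.2 and 17.2, HOXC4 had 14.2 and 16.7, and HOXC9, a gene of thoracic motor neurons, had 14.2 and 14.9. Neither HOXC6 and HOXC4 nor HOXC4 and HOXC9 differed beyond their spread, whereas HOXC6 exceeded HOXC9 by more than the spread. The lead of HOXC6 depended on the length used: with 1 length per gene it was at 8.16 ± 0.475, below HOXC4 at 14.3 ± 1.44 and HOXC9 at 13.1 ± 1.96, and its ratios to HOXC5 and HOXC8 were lower as well. HOXC11 had 9.63 and 12.1, and HOXC10, a gene of lumbar motor neurons, had 5.74 and 6.54. HOXC5 (0.798 and 1.55) lay 13.2-fold below HOXC4 and 14.2-fold below HOXC6, and HOXC8 (1.37 and 2.09) lay 9.65-fold below HOXC6 and 8.43-fold below HOXC9. HOXC12 was the low point of the cluster, with 22 estimated counts in each library and levels of 0.257 and 0.230. HOXC11 was 44.7-fold above HOXC12, and HOXC13, a gene of hair formation with levels of 3.16 and 4.19, was 15.1-fold above it.

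The HOXD cluster was lowest at its low-numbered end and at HOXD12. HOXD1 had levels of 0.414 and 0.470, HOXD3 had 2.21 and 2.73, and HOXD4 had 1.14 and 1.83. HOXD8 had 5.40 and 4.58 and HOXD9 had 4.20 and 7.25, and these neighbours did not differ beyond their spread. HOXD10, a gene of lumbar motor neurons and the limb, had 41.1 and 42.7 (41.9 ± 1.16), 7.32-fold above HOXD9. HOXD11, which acts with HOXA11 in kidney and forearm, had 15.7 and 21.8, and HOXD13, the gene of synpolydactyly, had 26.7 and 24.1 (25.4 ± 1.87). HOXD12, between them, had 9 and 16 estimated counts and levels of 0.135 and 0.214. HOXD11 was 108-fold and HOXD13 146-fold above HOXD12, and the lowest such ratio in a single library was 102 and 113. Groups 9 to 13 held nearly all HOXD RNA, 17.1% ± 0.346 of the HOX total, and groups 1 to 8 held the remainder.

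Of the 35 pairs of neighbours within a cluster, 32 differed by more than the spread between the libraries. Among all 741 pairs of HOX genes 660 (89.1%) did so, a similar share. In 17 pairs of neighbours the higher gene was over 5-fold above the lower, and in 11 pairs over 10-fold. Such fold counts were not made over all pairs, so no trait of neighbours is drawn from them. The contrasts of HOXA7, HOXC12 and HOXD12 with both of their neighbours, and of HOXA4 with HOXA5, held in the same direction under each of the other treatments of length and transcripts, but several sizes moved. These treatments did not address antisense overlap, and 61.9% of the words of HOXA7 were complementary to HOXA-AS3. Over the treatments, HOXA9 was 21.2-fold to 40.9-fold above HOXA7 and HOXD11 was 65.3-fold to 108-fold above HOXD12. Likewise HOXB9 was 6.16-fold to 13.3-fold above HOXB8, HOXC9 4.05-fold to 8.43-fold above HOXC8 and HOXD10 4.39-fold to 7.32-fold above HOXD9. Over all 741 pairs of HOX genes, 720 (97.2%) had the same order in both libraries and 660 (89.1%) differed beyond the spread. Only 7 of the 38 pairs adjacent in the order of levels did so, of which the highest were HOXA9 over HOXB9, HOXD10 over HOXA5, and HOXB6 over HOXA13. These orders depended on the transcripts and lengths used: with protein-coding transcripts only HOXA9 was at 32.5 ± 8.21 and HOXB9 at 47.96 ± 7.61, and with 1 length per gene HOXA9 was at 50.2 ± 4.12 and HOXB9 at 56.0 ± 8.42. With protein-coding transcripts only, HOXD10 (25.1 ± 2.75) was also below HOXA5 (28.7 ± 2.34), and HOXB6 (21.3 ± 1.81) was below HOXA13 (25.8 ± 0.919). With 1 length per gene HOXB6 (26.4 ± 1.25) was again below HOXA13 (30.3 ± 1.28). Across the genes, log2 levels of the libraries gave Pearson's r of 0.990 (38 genes above 0 in both) and Spearman's rho of 0.991 (39 genes), a description in which genes share their library and are not replicates.

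**Figure D2:**
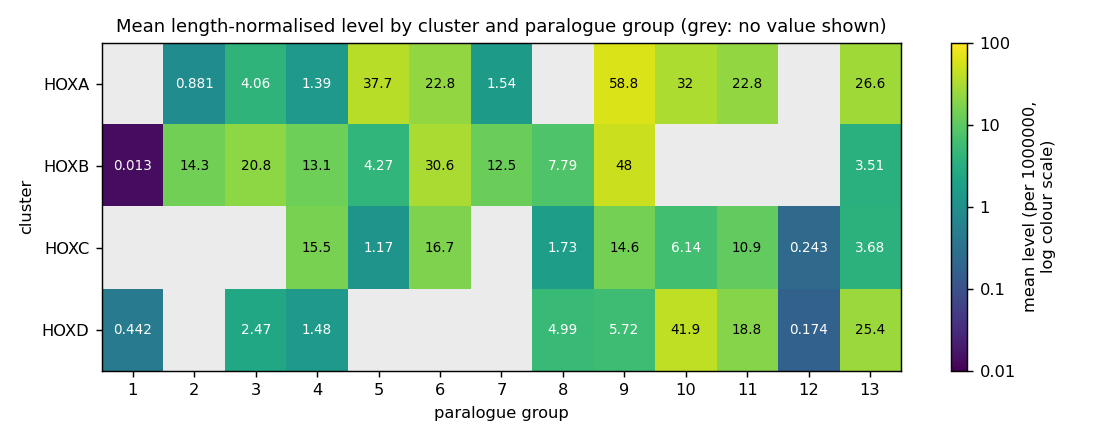
Mean length-normalised level per 1000000 of 38 HOX genes (log colour scale, values printed in the cells), with clusters as rows and the 13 paralogue groups as columns; grey cells have no value shown. Groups 9, 10, 11 and 13 are high in the HOXA and HOXD rows apart from HOXD9, whereas group 12 is low in both of its rows.

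Grouped by number across clusters, the paralogues of groups 9 to 13 held 59.4% ± 0.456 of the HOX total, those of groups 4 to 8 held 32.3% ± 0.0287 and those of groups 1 to 3 held 8.31% ± 0.428. The totals of these 3 regions differed by more than the spread, groups 9 to 13 being 1.84-fold above the central and 7.13-fold above the low-numbered region. In the same order the totals sum 16, 15 and 8 genes, so their ratios also reflect gene number. The median levels per gene were 16.7, 7.79 and 2.12. Group 9 had the highest total, with summed levels of 121.5 and 132.7, and it was followed by group 10 with 72.5 and 87.7 and by group 6 with 65.3 and 75.0. Group 13 had 60.5 and 57.9, and group 11, whose genes pattern the kidney, had 47.2 and 57.6. At the other end, group 12 had 0.392 and 0.443. Both members of group 12, HOXC12 and HOXD12, thus lay between neighbours in groups 11 and 13 that were well above them, and group 12 held 0.0777% ± 0.000278 of the HOX total.

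Paralogues did not share one level. In group 9, HOXA9 and HOXB9 were at 58.8 and 47.96 on average, while HOXC9 was at 14.6 and HOXD9 at 5.72. In group 10, HOXD10 (41.9) and HOXA10 (32.0) were above HOXC10 (6.14). In group 13, HOXA13 (26.6) and HOXD13 (25.4) did not differ beyond their spread, while HOXB13 (3.51) and HOXC13 (3.68) were both lower. In groups 6 and 11 every member was above 10, with HOXB6 at 30.6, HOXA6 at 22.8 and HOXC6 at 16.7, and with HOXA11 at 22.8, HOXD11 at 18.8 and HOXC11 at 10.9. In group 4, HOXC4 (15.5) and HOXB4 (13.1) lay above HOXD4 (1.48) and HOXA4 (1.39), which did not differ beyond their spread.

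Promoter sequences were read for the genes at the contrasts above. RefSeq windows of 250 bases before to 50 bases after an annotated start (GRCh38.p14) were matched by symbol to 20 of the 39 genes, with 27 windows. Without an entry were HOXA5, HOXB2, HOXB3, HOXB4, HOXB5, HOXB6, HOXB7, HOXB8, HOXB9, HOXB13, HOXC6, HOXC8, HOXC9, HOXC10, HOXC11, HOXC12, HOXC13 and HOXD9, among others. The 250 bases before the start are shown for the highest matched gene of the HOXA and HOXD clusters (HOXA9 and HOXD10), for the lowest of HOXA (HOXA2), and for HOXD12 beside HOXD13, the last pair chosen after their values were seen. They are at chr7:27165538-27165787 (minus strand) for HOXA9, chr7:27102684-27102933 (minus strand) for HOXA2, chr2:176116528-176116777 (plus strand) for HOXD10, chr2:176099545-176099794 (plus strand) for HOXD12 and chr2:176092471-176092720 (plus strand) for HOXD13. Each is written 5′ to 3′ on the strand of the gene, and capitals mark matches on either strand to the letters CCAAT, to TATAAA and to TGATTNAT.
HOXA9: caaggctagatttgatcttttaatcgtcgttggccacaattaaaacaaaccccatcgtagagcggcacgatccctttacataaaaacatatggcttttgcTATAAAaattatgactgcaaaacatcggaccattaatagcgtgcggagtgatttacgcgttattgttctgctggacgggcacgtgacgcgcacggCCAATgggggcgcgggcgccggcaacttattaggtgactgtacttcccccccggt
HOXA2: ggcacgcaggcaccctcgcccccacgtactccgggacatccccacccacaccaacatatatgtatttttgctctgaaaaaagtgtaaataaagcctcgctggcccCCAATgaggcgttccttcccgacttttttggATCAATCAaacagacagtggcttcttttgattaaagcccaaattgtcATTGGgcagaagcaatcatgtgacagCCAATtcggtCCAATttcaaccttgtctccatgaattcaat
HOXD10: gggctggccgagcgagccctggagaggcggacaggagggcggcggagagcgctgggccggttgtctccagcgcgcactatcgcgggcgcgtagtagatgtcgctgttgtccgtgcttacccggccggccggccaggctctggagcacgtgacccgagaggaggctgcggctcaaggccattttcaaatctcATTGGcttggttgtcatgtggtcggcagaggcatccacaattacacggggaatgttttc
HOXD12: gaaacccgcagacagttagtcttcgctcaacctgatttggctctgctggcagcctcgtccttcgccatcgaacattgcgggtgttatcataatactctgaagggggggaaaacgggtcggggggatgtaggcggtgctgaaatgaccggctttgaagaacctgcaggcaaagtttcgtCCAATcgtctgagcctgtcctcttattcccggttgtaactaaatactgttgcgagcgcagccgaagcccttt
HOXD13: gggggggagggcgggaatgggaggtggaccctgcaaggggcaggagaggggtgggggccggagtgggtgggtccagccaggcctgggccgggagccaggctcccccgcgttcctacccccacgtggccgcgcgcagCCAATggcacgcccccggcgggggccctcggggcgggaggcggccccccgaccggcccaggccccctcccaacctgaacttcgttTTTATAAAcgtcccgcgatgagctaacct
CCAAT, the letters bound by the factor NF-Y, was in all 5 of these promoters, including that of HOXD12. TATAAA was in those of HOXA9 and HOXD13 and not in those of HOXA2, HOXD10 and HOXD12.

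Over the 27 HOX windows, searched on both strands, 18 (66.7%) held CCAAT, beside 34.6% of all 35116 windows. TATAAA was in 5 (18.5%), beside 11.5%. TGATTNAT, the letters of a joint PBX and HOX site, was in 2 (7.41%), beside 2.82%, and AGGTCA, a nuclear receptor motif, was in 0, beside 13.8%. The median ratio of observed to expected CpG was 0.849 in the HOX windows and 0.579 in all, at median GC contents of 58.0% and 58.7%. HOXC4 and HOXC5 have the same window, which was counted for each, and HOXA3 and HOXA10 have several windows. These shares describe letters and not binding.

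The libraries were then compared for each gene by normalised counts; this sets one library against the other, with no condition behind it. Over 2-fold differences were found for 2 of the 38 HOX genes whose mean normalised count was 10 or more, beside 5.76% of all 19110 genes with such a mean. The wider of these was HOXA4, with 28.0 normalised counts in replicate 1 and 81.9 in replicate 2 (2.92-fold). The value of HOXA4 moved opposite to that of ENSG00000273433, an overlapping gene on the same strand. ENSG00000273433 had 52.9 normalised counts in replicate 1 and was listed at 0 in replicate 2. Summed, HOXA4 and ENSG00000273433 had 80.9 and 81.9 normalised counts, so the joint value hardly differed between the libraries. The readthrough gene ENSG00000257184 was also lower in replicate 2, at 73.3 and 10.6 normalised counts. HOXA10 was higher there (1316 and 2015), whereas HOXA9 was lower (2585 and 2287). The sums of HOXA9 and HOXA10 with the readthrough gene (3975 and 4313) and without it (3901 and 4303) were close.

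Most HOX genes were slightly higher in replicate 2. Among the 38 genes, 31 were higher in replicate 2 and 7 lower, whereas 44.8% of all genes with a mean of at least 10 were higher in replicate 2. The median log2 ratio of replicate 2 to replicate 1 was 0.30 for HOX genes and -0.06 for all genes, and the HOX values ran from -0.20 (HOXB7) to 1.55 (HOXA4). GC content moved with this ratio across all genes. With all genes divided by the GC content of their leading transcript into 5 equal bins, the median log2 ratio from the lowest to the highest bin was -0.39, -0.23, -0.08, 0.10 and 0.33, and the share of genes higher in replicate 2 was 9.76%, 19.5%, 37.9%, 67.1% and 89.5%. HOX transcripts had a median GC content of 55.2%, beside 48.7% for all genes, and 27 of the 38 were in the upper 2 bins. Within these bins the HOX medians were 0.30 (21 genes) and 0.61 (6 genes). The lower 3 bins held 1, 1 and 9 HOX genes, with medians of -0.16, -0.10 and 0.16. The part of GC content in the HOX difference was not tested.

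**Figure D3:**
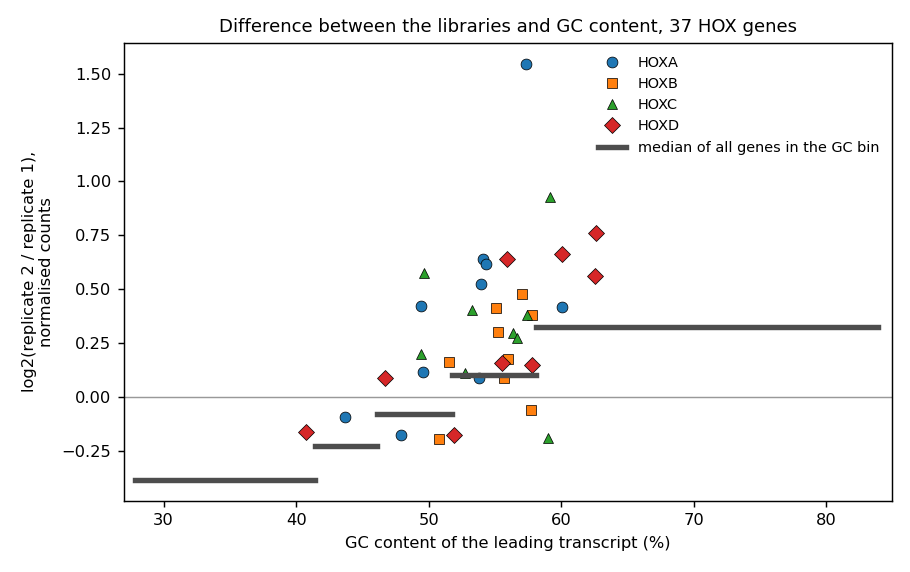
Log2 ratio of normalised counts (replicate 2 over replicate 1) against the GC content of the leading transcript, for 37 HOX genes whose mean normalised count was 10 or more, marked by cluster. Horizontal bars are the medians of all genes in each of 5 equal bins of GC content and rise from -0.39 to 0.33; HOXA4 (1.55) is the highest point.

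At the level of transcripts, 90.7% ± 2.94 of HOX counts were on the 76 transcripts typed as protein-coding. A further 8.91% ± 2.86 were on 28 transcripts of protein-coding genes with no defined coding sequence, and 0.414% ± 0.0743 on 3 transcripts with a retained intron. Per length, protein-coding transcripts held 79.5% ± 5.08. Non-coding types received counts in 17 of the 39 genes. Neither this count nor the split by type was computed over all genes, so they are not read as particular to HOX genes. In HOXD3 they held the majority, 65.1% and 78.4% of counts, since HOXD3-204 had 49.1 and 74.7 estimated counts while HOXD3-201, which encodes the protein, had 26.3 and 20.5. Without such transcripts the level of HOXD3 fell to 0.152 of its value, the strongest effect on any member.

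For HOXA9 the division between transcripts was unstable. HOXA9-201, which encodes the homeodomain protein, had 1182 estimated counts in replicate 1 and 1576 in replicate 2, whereas HOXA9-206, without a defined coding sequence, had 1093 and 442. The gene total was steady at 2443 and 2466. Of the counts of HOXA9, 47.5% and 24.4% were thus on non-coding types. HOXD11 showed 43.6% and 19.2% and HOXA2 41.1% and 5.77%, the latter on 34 and 52 estimated counts in all. In HOXA9, HOXD11 and HOXA2 the share was lower in replicate 2, and in HOXD3 it was higher.

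**Figure D4:**
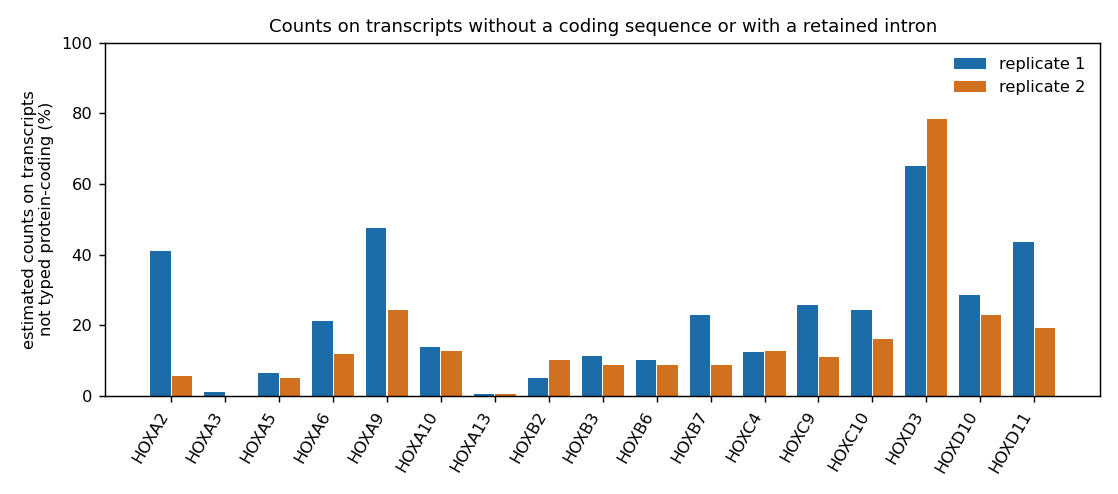
Share of the estimated counts of a gene (%, linear axis from 0) on transcripts not typed as protein-coding, for the 17 HOX genes that had any such count; blue bars are replicate 1 and orange bars are replicate 2. HOXD3 has the highest share in both libraries (65.1% and 78.4%), and HOXA9, HOXD11 and HOXA2 differ most between the libraries.

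Of the HOX genes, 26 had several transcripts and counts in both libraries. The leading transcript was another one in each library for 2 of them, beside 22.2% of all such genes. In HOXA4, all 26.5 estimated counts of replicate 1 were on HOXA4-202 and all 88.3 of replicate 2 were on HOXA4-203. In HOXD8, HOXD8-202 led in replicate 1 with 112.8 of 225 counts and HOXD8-201 in replicate 2 with 95.3 of 229. The other 24 genes kept their leader, HOXA9 among them.

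The cluster spans also hold 61 genes that are not members, of which 28 are long non-coding RNA (lncRNA) genes. Of the 61 genes, 34 had at least 3 estimated counts in both libraries. Among them were 27 of the 28 lncRNA genes, whereas 30.2% of all lncRNA genes reached this. All 20 lncRNA genes on the strand opposite to the HOX genes and 7 of 8 on the same strand were detected. Most of these 20 genes overlap HOX exons, and whether counting used strand is not given. For the genes that overlap, detection therefore cannot be separated from reads of the HOX genes in the shared stretches. The others of the 20, HOTAIR and HOXB-AS4 among them, overlap no HOX exon. Of 17 misc_RNA genes 5 were detected, and of 8 miRNA genes and 3 processed pseudogenes none.

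Non-members were ranked by normalised counts. The most abundant was HOXB-AS3, with 1045 and 1034 normalised counts. Its level of 75.8 and 76.9 exceeded that of every HOX gene, although it overlaps HOX exons and is complementary to stretches of HOXB3, HOXB5 and HOXB6. HOXA11-AS, opposite HOXA11, had 825.0 and 937.7 normalised counts, and HOXA-AS3, opposite HOXA6 and HOXA7, had 428.8 and 589.0. HOXA7 itself had 46.6 and 72.5 normalised counts. HOTAIR, a lncRNA known from studies of Polycomb recruitment, had 454.5 and 436.0 and overlaps no HOX exon. It starts within the HOXC11 gene and runs towards HOXC12. HOTAIRM1, at the low-numbered end of the HOXA cluster, had 441.6 and 396.8.

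The remaining 5 of the 10 most abundant by normalised counts were ENSG00000257178 (355.2 and 443.3), LINC03057 (325.9 and 428.4), HAGLR (298.3 and 329.3), HOXA-AS2 (269.3 and 272.2) and HOXC-AS2 (172.8 and 253.1). ENSG00000257178 and LINC03057 lie on the strand of the HOXB genes, the others opposite to theirs. By level the 10 highest differed: ENSG00000278020, a misc_RNA gene, had levels of 11.0 and 12.8 and ENSG00000253508, a lncRNA gene, had 10.4 and 12.9, above ENSG00000257178 (4.87 and 6.19), HAGLR (4.42 and 4.26) and HOXC-AS2 (3.17 and 4.89). HOTTIP, a lncRNA at the HOXA13 end of its cluster, had 74.7 and 85.8 normalised counts and was named after its value was seen. Relative to all counts of a span, non-members held 18.7% ± 0.227 in HOXA, 20.0% ± 0.796 in HOXB, 25.1% ± 0.327 in HOXC and 7.68% ± 0.671 in HOXD. The log2 ratio of non-member to HOX counts was -2.12 ± 0.02 in HOXA, -2.004 ± 0.07 in HOXB, -1.57 ± 0.03 in HOXC and -3.59 ± 0.14 in HOXD. The HOXD cluster thus had the lowest non-member share in both libraries.

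**Figure D5:**
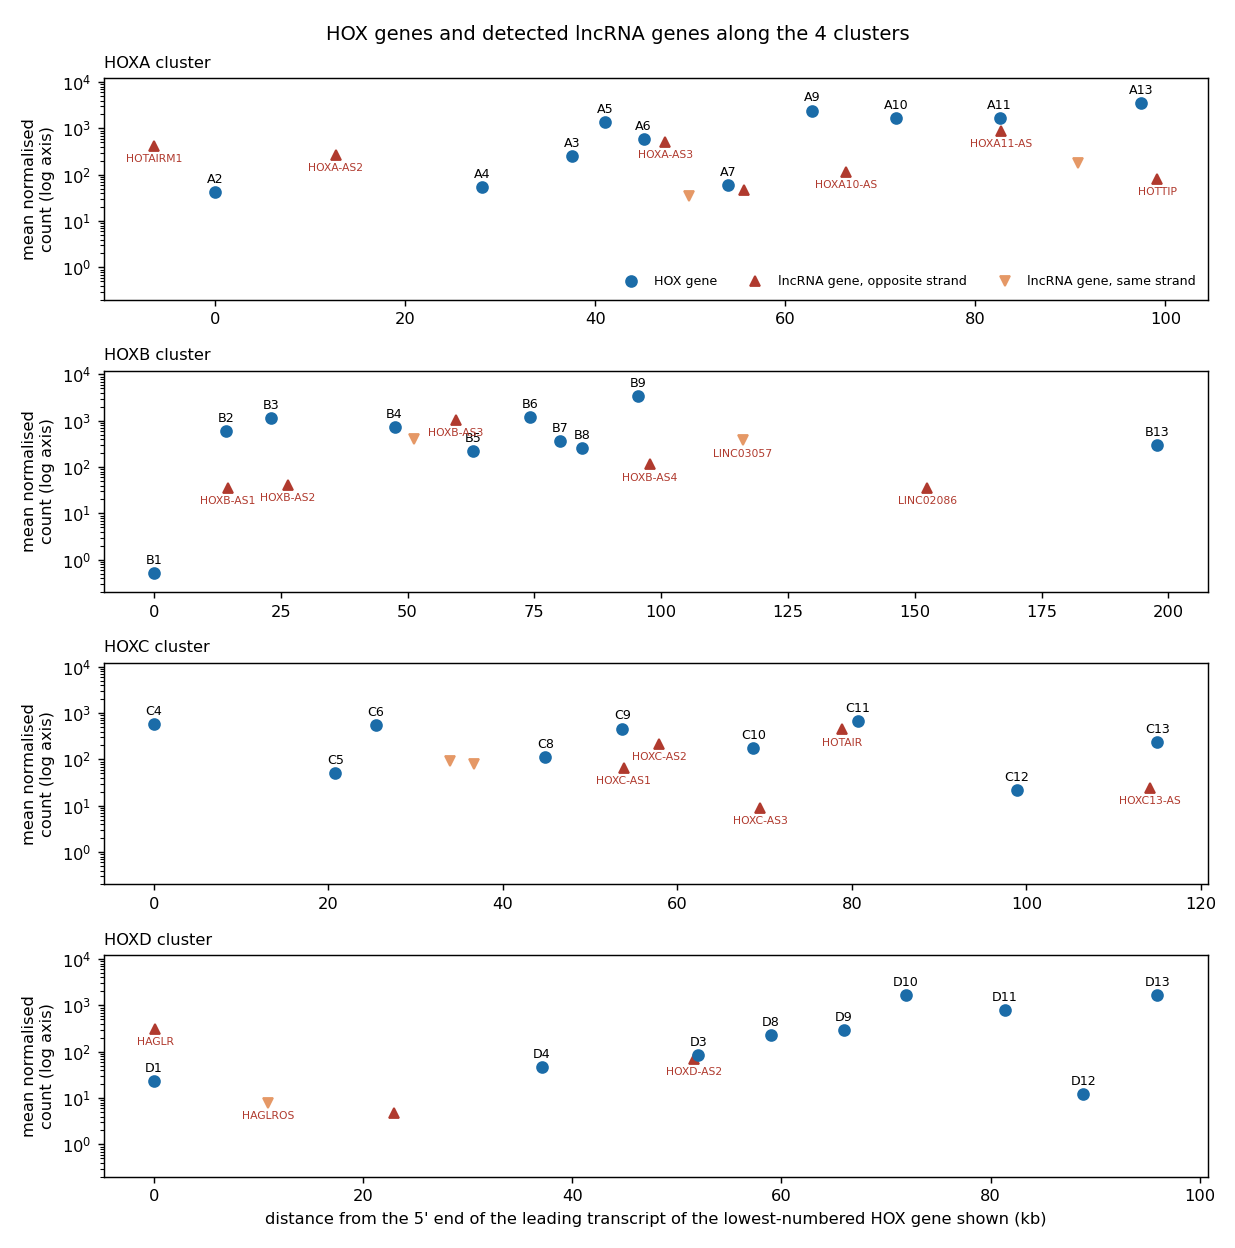
Mean normalised count (log axis) of HOX genes (circles) and detected lncRNA genes on the opposite strand (upward triangles) or the same strand (downward triangles), against the distance in kb from the 5′ end of the leading transcript of the lowest-numbered HOX gene shown of the cluster. HOXB-AS3, at 1039, is the highest lncRNA gene, and HOXD12, at 12.2, lies between HOXD11 and HOXD13, at 795.4 and 1687.

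The clusters contain miRNA genes, and those of the miR-196 and miR-10 families are known to target HOX mRNAs. Of 7 such genes (MIR10A, MIR10B, MIR196A1, MIR196A2, MIR196B, MIR615 and MIR3185), 6 were listed at 0 in both libraries, and MIR196A1, beside HOXB9, had 3 and 1 estimated counts. Mature sequences from RefSeq (GRCh38.p14) are shown for the miR-196 and miR-10 families, with the seed (bases 2 to 8) in capitals, since these families lie beside the highest genes of the HOXA and HOXB clusters and beside HOXB4.
hsa-miR-196a-5p: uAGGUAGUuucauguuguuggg
hsa-miR-196b-5p: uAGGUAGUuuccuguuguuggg
hsa-miR-10a-5p: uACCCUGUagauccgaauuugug
Both miR-196 sequences carry the seed AGGUAGU, and miR-10a carries ACCCUGU. The counts refer to the annotated hairpin genes in libraries of rRNA-depleted total RNA, so they do not measure the mature miRNAs.

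Partners and regulators of HOX genes were read from lists of genes, described by their levels. All 9 TALE cofactors had levels of at least 1 in both libraries, with PBX2 the highest at 21.3 and 24.1 and PBX4 the lowest at 1.10 and 1.85. MEIS2 had 16.2 and 14.8, PBX3 14.9 and 13.2 and MEIS1 9.43 and 10.4. The list as a whole had a median of 10.4, beside the HOX median of 7.79. All 11 genes of Polycomb repressive complex 2 (median 15.6) and all 16 of complex 1 (median 12.4) were at 1 or above. EZH2, the H3K27 methyltransferase, had 24.7 and 22.6, SUZ12 had 18.4 and 13.1 and EED had 9.76 and 7.08. BMI1, a subunit of complex 1, had 35.7 and 21.7.

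All 11 MLL and H3K27 demethylase genes were likewise at 1 or above (median 12.2). KMT2A, which encodes MLL, had 14.6 and 15.3, and KDM6B, an H3K27 demethylase, was the lowest of the list at 1.90 and 3.46. Of the 8 insulator and cohesin genes, 7 were at 1 or above, with CTCF at 21.7 and 17.6. CTCFL, a germ-cell paralogue of CTCF, had 2 estimated counts in each library. GMNN, the DNA replication inhibitor geminin, had 49.7 and 37.1.

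The retinoid pathway, which induces HOX genes in the embryo, had 9 of 12 genes at 1 or above. ALDH1A2, which makes retinoic acid, led with levels of 92.5 and 80.3, and CYP26A1, which degrades it, had 4.78 and 5.41. The receptors RARA (4.08 and 6.80), RARB (5.19 and 4.34) and RARG (8.16 and 8.66) were all above 1, whereas RXRG was at 0.112 and 0.139. Of the 8 ParaHox, CDX and EVX genes, homeobox genes related to the HOX family, only CDX2 was above 1, at 9.40 and 12.2. GSX1, GSX2, CDX1 and CDX4 were listed at 0. EVX1 and EVX2, which lie beyond the HOXA13 and HOXD13 ends of their clusters, had levels of 0.0401 and 0.107 and of 0.0628 and 0.0561, beside 27.1 and 26.1 for HOXA13 and 26.7 and 24.1 for HOXD13.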

How the data were processed

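Total RNA depleted of rRNA from HEK293 Flp-In T-Rex cells had been sequenced as TruSeq libraries. The submitters' processing notes name FastQC, STAR 2.7.0d, RSEM 1.3.3 and R 3.6.3, and the study names GRCh38 with Ensembl release 104. The deposited tables give an estimated count per transcript, which the authors made with RSEM (a read that matches several transcripts is shared out among them). They also give a deposited normalised signal, which equals the count divided by a size factor of 0.945 (replicate 1) or 1.08 (replicate 2). Some items are not reported here. The METTL8 tables and their values were not used here.

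Of 206696 transcripts, 202217 matched GENCODE v44 without version, with 96.9% and 96.8% of counts. Of the 107 HOX transcripts 36 had another version, with 59.4% and 64.9% of HOX counts, so their lengths may differ from those used by the authors. Counts were summed per gene, and levels used full transcript lengths. Detection required 3 estimated counts, and comparisons of libraries a mean of 10 normalised counts. The HOX genes, lists and rules were chosen with earlier results of these data known. Named in full were the 10 highest HOX genes, those over 2-fold apart between libraries, and the 10 most abundant non-members; any other gene was named with its values already seen. Alternatives changed the length, the transcript types, the filters, the denominator or the libraries. Python 3.11.15, pandas 2.3.3, numpy 2.4.6 and matplotlib 3.10.9 were used.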

Additional observations from a re-analysis of the deposited data

How the results depend on the processing

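No paired analysis was possible because there was 1 group. Of 55 alternative values for the totals, shares, ratios and counts, 19 stayed within the spread (for counts, within 1.5 times) and 36 moved. Only the log2 ratios of non-member to HOX counts could change sign, and none of them did. With normalised counts not divided by length, the shares of HOXA, HOXB, HOXC and HOXD were 42.7%, 29.6%, 10.4% and 17.4%. Those of groups 4 to 8 and 9 to 13 were 23.2% and 68.6%, and the HOX total was 1076 per 1000000. The 5 genes highest by the main levels held 37.96%. This set was kept in each alternative and was not the 5 highest genes by these counts. With the length of the longest protein-coding transcript, HOXA, HOXC and HOXD held 39.8%, 10.9% and 20.1%, and groups 1 to 3, 4 to 8 and 9 to 13 held 6.84%, 30.7% and 62.4%. With protein-coding transcripts only, the clusters held 37.7%, 30.8%, 13.7% and 17.7%, and groups 1 to 3 and 4 to 8 held 7.65% and 33.2%. The same 5 genes, again not the 5 highest in this setting, held 36.9%. The total was 428.1, and 4 adjacent pairs differed beyond the spread, not 7. Without misc_RNA, ribozyme, snRNA, snoRNA, rRNA and mitochondrial transcripts in the denominator the total was 1174. The cause of each was not tested.

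Over 2-fold differences were found for 17 HOX transcripts taken singly, for 1 gene at a mean of at least 100, and for 1 gene when HOXA4 was summed with ENSG00000273433, an alternative chosen after seeing the data. The share over all transcripts was not computed, so the 17 transcripts are not read as a trait of HOX genes. The protein-coding share was 79.5% by levels. By levels the log2 ratios of non-members to HOX genes were -0.79, -0.52, -1.34 and -3.78 for HOXA, HOXB, HOXC and HOXD, and with genes that overlap no HOX exon they were -5.07, -3.08, -2.20 and -9.29. Of the 39 single genes, 19 moved with 1 length per gene and 13 with protein-coding transcripts only. Over 1.5-fold moves with protein-coding transcripts only were those of HOXA9 (32.5), HOXD10 (25.1), HOXB3 (13.2), HOXD11 (12.1), HOXC9 (9.45), HOXB7 (8.32), HOXC10 (4.01) and HOXD3 (0.375), and with 1 length per gene those of HOXB3 (11.7), HOXC6 (8.16), HOXB8 (5.00), HOXC10 (3.85) and HOXD3 (1.501), all downwards. With 1 library at a time, means moved by less than 1 SD by construction, and counts of differing pairs and of over 2-fold differences could not be computed.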
